A study of Mus musculus with 6 samples.

Results

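The cytosolic ribosomal protein genes encode the proteins of the large (Rpl) and small (Rps) subunits of the ribosome that translates nuclear-encoded messages. They were taken as the genes whose symbol starts with Rpl or Rps and a number, together with Rplp0, Rplp1, Rplp2 and Rpsa. The Rps6k kinases, pseudogenes with -ps in the symbol and mitochondrial ribosomal proteins were left out. The rule found 66 genes on 98 probes. Among them were Rps19bp1 and Rps23rg1, which are not named for a ribosomal subunit, and Rps4l, which is annotated as a transcribed pseudogene. A gene was measured when a probe had a detection p under 0.05 on at least 3 of 6 arrays. This held for 57 of the 66 genes, out of 8808 genes measured in all. Of the 57, 35 were assigned to the large and 21 to the small subunit by symbol alone, and the last was Rps19bp1. The brightest kept probe stood for each gene.

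RNA came from sort-purified CD4+CD8+ double-positive thymocytes of mice on a C57BL/6 background, immature T cells that bear both coreceptors. The Flvcr-deleted group (Flvcr-/-) and the control group (Flvcr+/+) had 3 samples each, with 1 Illumina bead array per sample. Flvcr1 encodes a heme exporter of the cell surface. The labels do not name the promoter that drove the deletion, the deleted part of the gene, the age of the mice or whether each sample is a different mouse. The p-values therefore reflect the spread among these 6 samples, which may be technical.

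Ribosomal protein genes are among the most strongly transcribed genes of a dividing cell, and each ribosome takes up its proteins in fixed proportion to ribosomal RNA. Most of their messages start with a terminal oligopyrimidine (TOP) tract, through which mTOR signalling controls their translation, and free ribosomal proteins can bind Mdm2 and so stabilise p53. Many of the genes, when mutated in 1 copy, cause Diamond-Blackfan anaemia in humans, a failure of red cell production with which the anaemia of Flvcr1-deficient mice has been compared. In mouse thymocytes Rpl22 is needed for the alpha-beta T cell lineage.

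None of the 57 ribosomal protein genes passed the test between Flvcr-deleted and control thymocytes. With limma and Benjamini-Hochberg adjustment over all kept probes, 0 passed an adjusted p of 0.05, against 0.148% of all genes measured, and the smallest adjusted p among them was that of Rps24, at 0.73. At an unadjusted p under 0.05 there were 3 of 57 (Rps24, Rpl23 and Rplp0), all higher in Flvcr-deleted cells, against 4.63% of all genes in either direction and 2.6% higher. The median log2 fold change over the 57, Flvcr-deleted minus control, was 0.02, next to 0.01 over all genes measured. In Flvcr-deleted cells 34 of the 57 read higher and 23 lower, and 51.8% of all genes read higher.

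The intervals put a bound on what a difference in array signal could have been, which is not a bound on the change in the message. The 95% interval of the log2 fold change lay within 1.5-fold in either direction for 51 of the 57 genes. The other 6 were Rpl14, Rpl3l, Rpl22l1, Rps15a, Rps19bp1 and Rplp0, and the highest bound among them was 0.97 on the log2 scale, for Rpl14. For 37 of the 57 genes the mean signal was 14 or more, where genes of any kind differed little between the groups. A probe may also not tell a gene from its near-identical pseudogenes. The intervals are not adjusted for the number of genes. They describe values scaled to a common distribution on every array, on which a change shared by all messages of a cell cannot be seen, and in RNA of many cells fewer cells of a type and less RNA per cell cannot be told apart.

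**Figure D1:**
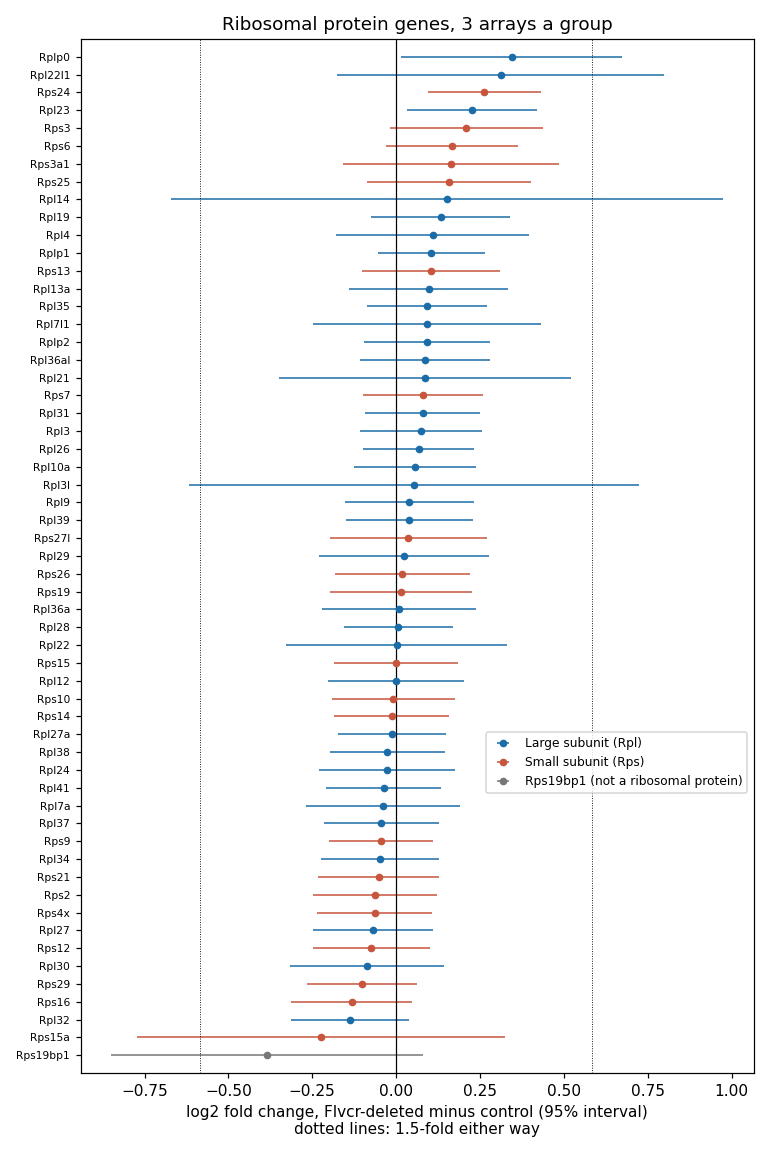
Log2 fold change of the 57 measured ribosomal protein genes (x axis, Flvcr-deleted minus control, log2 units) with 95% intervals from limma, by gene (y axis). Nearly all points sit close to 0, and 51 of the 57 intervals lie between the dotted lines at 1.5-fold.

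The Flvcr1 transcript itself was lower in all Flvcr-deleted samples. It measured 9.92, 10.45 and 10.13 on the Flvcr-deleted arrays, against 11.01, 11.28 and 10.93 on the control arrays (log2), a log2 fold change of -0.91 (SE 0.157, limma adjusted p = 0.0317). The labels do not say whether the probe lies in the deleted part. The Flvcr1 difference missed the threshold when the trend of the variance was dropped (adjusted p = 0.38), or with 1 array left out, namely Flvcr-deleted replicate 1 (0.115), Flvcr-deleted replicate 3 (0.233), control replicate 1 (0.296) or control replicate 2 (0.184), with the same direction each time. Of the 9 genes listed as markers of double-positive thymocytes 7 were measured, among them Rag1, Rag2, Cd4 and Cd8b1, and 0 passed. Of 5 B cell markers 2 were measured, Igkc, an immunoglobulin light chain, which fell (log2 fold change -3.36, limma adjusted p = 5.09e-07), and Cd79b, which stood at 0.26. Of 5 erythroid markers 2 were measured, and Hbb-b1, a globin, ran from 7.86 to 12.47 on the Flvcr-deleted arrays and from 10.45 to 12.07 on the control arrays. All 3 of the 5 mature T cell markers that were measured read lower (Ccr7 -0.76, Klf2 -0.67 and Il7r -0.36), as did Cd74 (-1.13). The groups did not overlap for Il7r and Cd74, and overlapped for Ccr7 and Klf2, where 9.59% of all genes measured had no overlap. Cd74 was 1 of 2 measured of 5 dendritic cell and macrophage markers, and the other, Lyz2, stood at 0.05. None of these 5 passed (limma adjusted p = 0.559 for Cd74 and 1 for the others). Their part in the values of the ribosomal protein genes was not tested.

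The regulatory starts of these genes are shown for Rps24, Rpl23 and Rplp0, the genes with the smallest p, with Rplp2 and Rps6 beside them as examples of a pyrimidine start. Each runs from 60 bases before to 10 bases after the annotated start (RefSeq, GRCm38.p6, sense strand, 5′ to 3′). Capitals mark a run of 8 or more C or T that reaches within 20 bases of the start, or CCGGAAG, the core of an ETS factor motif, on either strand. They lie at chr14:24490618-24490687 on the plus strand (Rps24), chr11:97782430-97782499 on the minus strand (Rpl23), chr5:115559407-115559476 on the plus strand (Rplp0), chr7:141447591-141447660 on the plus strand (Rplp2) and chr4:86857358-86857427 on the minus strand (Rps6).
Rps24: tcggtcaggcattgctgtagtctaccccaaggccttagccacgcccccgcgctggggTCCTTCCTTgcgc
Rpl23: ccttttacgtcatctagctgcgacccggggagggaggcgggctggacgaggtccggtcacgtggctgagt
Rplp0: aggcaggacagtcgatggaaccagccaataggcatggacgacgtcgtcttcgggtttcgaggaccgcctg
Rplp2: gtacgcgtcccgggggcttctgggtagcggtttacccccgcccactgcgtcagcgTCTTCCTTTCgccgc
Rps6: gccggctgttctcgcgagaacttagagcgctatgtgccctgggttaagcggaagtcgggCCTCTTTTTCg

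Rps24, Rplp2 and Rps6 have a pyrimidine run at the annotated start, and Rpl23 and Rplp0 have none there. None of the 5 stretches shown holds CCGGAAG. A window of 250 bases before to 50 after the start was at hand for 49 of the 57 genes, the first listed for a gene with several. In that longer window Rplp2 and Rps6 hold CCGGAAG on either strand, and Rps24, Rpl23 and Rplp0 do not. A pyrimidine run within 20 bases of the start stood in 22 of the 49 (44.9%), against 15.5% of 17492 protein-coding genes, and CCGGAAG in 19 of the 49 (38.8%), against 11.9%. Runs shorter than 8 bases, or at a start other than the annotated one, were not counted, so a gene without a counted run may still have a TOP tract. The runs can share CTTCC with CTTCCGG, the other strand of that motif. TATAAA stood in 10.2% against 13.3%, and the E-box CACGTG in 10.2% against 7.9%. The median log2 fold change was 0.04 in the 22 genes with a run (-0.22 to 0.31) and 0.01 in the 27 without (-0.38 to 0.34).

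Rps24, a small subunit protein and a Diamond-Blackfan anaemia gene, came nearest to a call. Its brightest probe read 14.95, 15.00 and 14.88 on the Flvcr-deleted arrays, against 14.64, 14.75 and 14.64 on the control arrays. The groups did not overlap, and the log2 fold change was 0.26 (95% interval 0.09 to 0.43), or 1.20-fold (limma adjusted p = 0.73). In the intensities before scaling the same probe read 31006.9, 28974.5 and 32262.8 on the Flvcr-deleted arrays, against 27085.3, 29871.3 and 22726.1 on the control arrays. There the groups overlapped through control replicate 2, the array with the highest median intensity (149.1, against 126.1 to 140.8 on the others). Unscaled values carry the brightness of the whole array, so they do not compare the groups on their own. The other kept probes of Rps24 did not show the difference. They stood at -0.06 and -0.32 at mean signals of 9.43 and 5.72, and with the mean of its probes the gene read -0.04.

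Rpl23, a large subunit protein that can bind Mdm2, read 14.95, 15.06 and 15.01 on the Flvcr-deleted arrays, against 14.69, 14.68 and 14.98 on the control arrays. Control replicate 3 was higher than Flvcr-deleted replicate 1, so the groups overlapped, and the log2 fold change was 0.23 (95% interval 0.03 to 0.42). Its other kept probes stood at 0.14 and -0.31, and on both the groups did not overlap, in opposite directions. With the mean of its probes Rpl23 stood at 0.019. Without control replicate 3 the adjusted p of Rpl23 was 0.322, the smallest of any ribosomal protein gene when an array was left out.

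The P stalk, which recruits translation factors to the large subunit, read higher in all 3 of its genes, and 0 passed. Rplp0, the base of the stalk, read 9.30, 9.55 and 9.45 on the Flvcr-deleted arrays, against 8.9998, 9.07 and 9.20 on the control arrays, with no overlap and a log2 fold change of 0.34 (95% interval 0.02 to 0.67). Its stalk partner Rplp1 read 15.15, 15.15 and 15.05 on the Flvcr-deleted arrays, against 15.04, 14.98 and 15.01 on the control arrays, also with no overlap, and a log2 fold change of 0.10. Rplp2, the other partner, stood at 14.47 ± 0.11 in Flvcr-deleted and 14.38 ± 0.08 in control cells (SD, n = 3 each), and its groups overlapped. The probe of Rplp0 was much dimmer, at a mean signal of 9.26, than those of Rplp1 (15.06) and Rplp2 (14.43). A probe named for the pseudogene Rplp0-ps1, at a mean signal of 10.46, read 0.16 with groups that overlapped. Groups without overlap were found for 4 of the 57 ribosomal protein genes, or 7.02%, against 9.59% of all genes. Of the 57, 3 were higher without overlap (Rps24, Rplp0 and Rplp1), where 5.23% of all genes measured were, and Rps29 was lower. Rps29, a small subunit protein and a Diamond-Blackfan anaemia gene, read 14.80, 14.92 and 14.80 on the Flvcr-deleted arrays, against 14.94, 14.94 and 14.93 on the control arrays, a log2 fold change of -0.10.

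**Figure D2:**
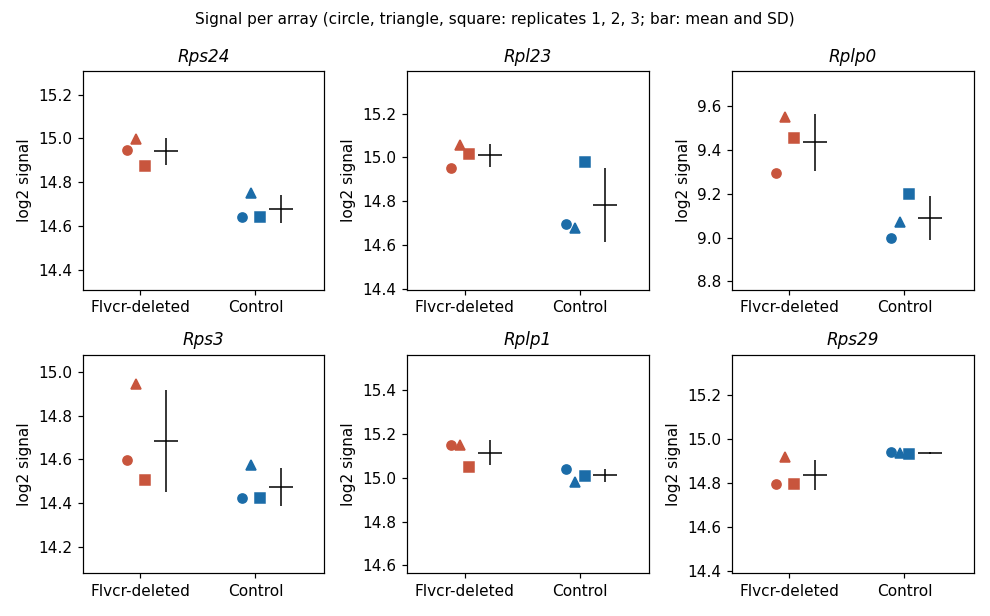
Log2 signal per array of 6 ribosomal protein genes, Flvcr-deleted arrays left and control arrays right in each panel, each y axis spanning 1 log2 unit, with the mean and SD of the 3 arrays. Rps24, Rplp0 and Rplp1 are higher on all Flvcr-deleted arrays, Rps29 is lower, and Rpl23 and Rps3 overlap.

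Large and small subunit genes differed little in their medians. Of 35 measured large subunit genes 24 read higher in Flvcr-deleted cells, with a median log2 fold change of 0.05 and a range of -0.14 (Rpl32) to 0.34 (Rplp0). Of 21 small subunit genes 10 read higher, with a median of 0.00 and a range of -0.22 (Rps15a) to 0.26 (Rps24). Neither subunit had a gene past the threshold.

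The further small subunit genes that read highest were Rps3 and Rps6. Rps3, which lines the entry of the mRNA channel, read 14.60, 14.95 and 14.51 on the Flvcr-deleted arrays, against 14.43, 14.57 and 14.43 on the control arrays, a log2 fold change of 0.21 (95% interval -0.02 to 0.44). Flvcr-deleted replicate 2 stood above the rest, the groups overlapped, and without that array the log2 fold change was 0.0756. Its other probe gave nearly the same, at 0.23. Rps6, the substrate of the S6 kinases, read 14.22, 14.15 and 14.28 on the Flvcr-deleted arrays, against 13.97, 13.97 and 14.20 on the control arrays, a log2 fold change of 0.17.

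At the other end, the lowest value belonged to Rps19bp1, a protein that binds Rps19 and is not itself a ribosomal protein (-0.38, SE 0.217). It read 7.26, 6.91 and 7.37 on the Flvcr-deleted arrays, against 7.48, 7.37 and 7.84 on the control arrays, with Flvcr-deleted replicate 3 level with control replicate 2. It stood at -0.25 without Flvcr-deleted replicate 2, at -0.25 without control replicate 3 and at -0.23 without background correction. Rps15a had a log2 fold change of -0.22 (SE 0.257) on a dim probe, and Rpl32, Rps16 and Rpl30 had -0.14, -0.13 and -0.09. With 1 array left out Rps15a ran from -0.48 (Flvcr-deleted replicate 2) to -0.0377 (Flvcr-deleted replicate 3), Rpl32 came to -0.0878 (control replicate 1) and Rps16 to -0.0763 (Flvcr-deleted replicate 2). Rpl32, of the large subunit, read 14.58, 14.55 and 14.68 on the Flvcr-deleted arrays, against 14.83, 14.65 and 14.74 on the control arrays, and the groups overlapped through Flvcr-deleted replicate 3.

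Of 10 measured genes in paralogue pairs 9 read higher in Flvcr-deleted cells and 1 lower, where 51.8% of all genes read higher, and 0 passed. The direction of Rpl22, Rpl36a, Rpl39, Rpl3l, Rpl7l1 and Rps27l changed under some alternatives of the processing. For Rpl7l1, Rps27l, Rpl39 and Rps4x the other gene of the pair was not measured. Rpl22l1 is the paralogue of Rpl22. Rpl22 read 9.80, 9.53 and 9.58 on the Flvcr-deleted arrays, against 9.57, 9.52 and 9.81 on the control arrays, a log2 fold change of 0.00 (95% interval -0.33 to 0.33). Rpl22l1 read 7.34, 7.88 and 7.28 on the Flvcr-deleted arrays, against 7.47, 7.02 and 7.08 on the control arrays, a log2 fold change of 0.31 (95% interval -0.17 to 0.80). Only Flvcr-deleted replicate 2 lay above all control arrays, and the gene did not pass. Without that array the log2 fold change of Rpl22l1 was 0.12, with array weights 0.0968 and without background correction 0.19.

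Rps27l, a paralogue of Rps27 that p53 can induce, stood at 13.33 ± 0.21 in Flvcr-deleted and 13.29 ± 0.03 in control cells (SD, n = 3 each). The log2 fold change of Rpl3 was 0.08 (SE 0.085) and that of its paralogue Rpl3l, known from muscle, 0.05 on a probe detected on 4 arrays. Rpl36a and Rpl36al had log2 fold changes of 0.01 and 0.09, Rpl7l1 0.09, Rpl39 0.04 and Rps4x -0.06. The 5S RNP genes Rpl5 and Rpl11 were not analysed here.

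Of 18 Diamond-Blackfan anaemia genes listed, 10 were measured. In Flvcr-deleted cells 7 of the 10 read higher and 3 lower. The median log2 fold change was 0.04, and 0 were past the threshold. Rps19, the gene most often mutated in that disease, read 15.01, 14.82 and 15.11 on the Flvcr-deleted arrays, against 14.92, 14.83 and 15.15 on the control arrays, a log2 fold change of 0.01 (95% interval -0.20 to 0.23). The groups covered almost the same range. Rpl26 stood at 0.07 (95% interval -0.10 to 0.23).

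Most ribosomal protein probes lay near the top of the arrays' range. The mean signal was 14 or more for 37 of the 57 genes, and ribosomal protein probes made up 25 of the 100 brightest kept probes. Rps9, of the small subunit, was the brightest, at 15.12 ± 0.02 in Flvcr-deleted and 15.17 ± 0.04 in control cells (SD, n = 3 each). At this brightness genes of any kind differed little between the groups: the median size of the log2 fold change was 0.06 for the 37 ribosomal protein genes and 0.06 for 90 other genes at 14 or more, against 0.12 for all genes. The median SD within groups was 0.08, 0.10 and 0.21 in the same order.

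The dimmest genes were Rpl14 and Rpl3l, each detected on 4 of the 6 arrays, while the other 55 were detected on all 6. Rpl14 read 6.36, 6.06 and 5.08 on the Flvcr-deleted arrays, against 6.23, 4.88 and 5.93 on the control arrays, the widest range within a group of any member. The 9 genes that did not pass the detection filter were Rpl6, Rpl17, Rpl39l, Rps4l, Rps18, Rps20, Rps23, Rps23rg1 and Rpsa, with at most 2 arrays detected. Most of these encode core ribosomal proteins, and nothing is read from the lack of a detected probe.

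Before scaling, the summed intensity of the ribosomal protein probes was close in both groups. It made up 6.09%, 5.80% and 6.16% of the signal of all kept probes on the Flvcr-deleted arrays, against 6.00%, 5.77% and 6.03% on the control arrays. The groups overlapped, and the span within each group was larger than the gap between their middles. The median deviation of the 57 genes from their own mean was -0.00, 0.03 and 0.03 on the Flvcr-deleted arrays, against -0.01, -0.04 and 0.01 on the control arrays (log2).

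Single arrays moved individual genes in both directions. Flvcr-deleted replicate 2 held the highest value of 15 of the 57 genes and the lowest of 16, and control replicate 2 the highest of 6 and the lowest of 15. The median size of a gene's deviation was 0.10 on Flvcr-deleted replicate 2, against 0.05 to 0.07 on the other arrays. Rps3, Rps3a1, Rps13 and Rps25 were at their highest on that array, and Rps2, Rps16 and Rpl29 at their lowest. The 90 other genes with a signal of 14 or more deviated by a median of 0.08 on that array and on control replicate 2.

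**Figure D3:**
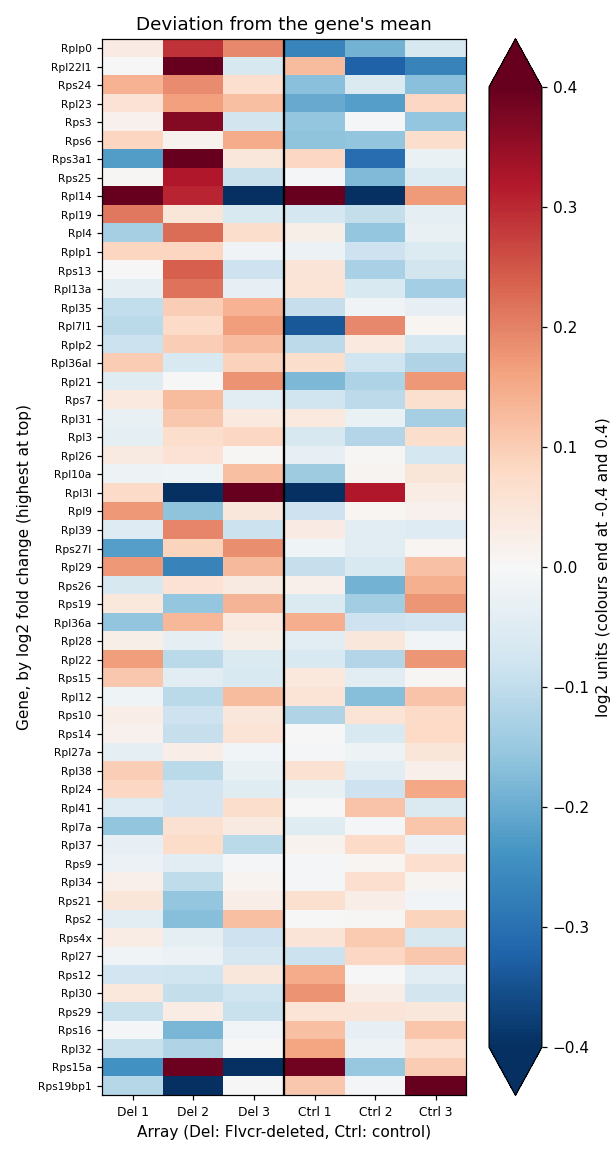
Deviation of each of the 57 genes (rows, highest log2 fold change at the top) from its own mean on each array (columns, Flvcr-deleted left, control right), in log2 units. A few rows near the top, such as Rplp0 and Rps24, are one colour on the Flvcr-deleted and the other on the control arrays, most rows are mixed, and Flvcr-deleted replicate 2 holds many of the strongest colours in both directions.

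Probes of the same gene often differed in sign. For 16 genes more than 1 probe was kept, with 21 probes beyond the brightest. Of these 21, 10 read in the same direction as the brightest probe and 11 in the other, with log2 fold changes of -0.60 to 0.40 and 0 past the threshold. Only 6 of the 21 were highest on the same array as the brightest probe, and 6 were lowest on the same array. Among the concordant cases, the 3 probes of Rpl31 were all highest on Flvcr-deleted replicate 2, and both probes of Rps12 on control replicate 1. Rps19 had a second probe at -0.60, at a mean signal of 5.74 and detected on 3 arrays, and Rpl38 a second at 0.40, at 9.75, while their brightest probes stood at 0.01 and -0.03.

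**Figure D4:**
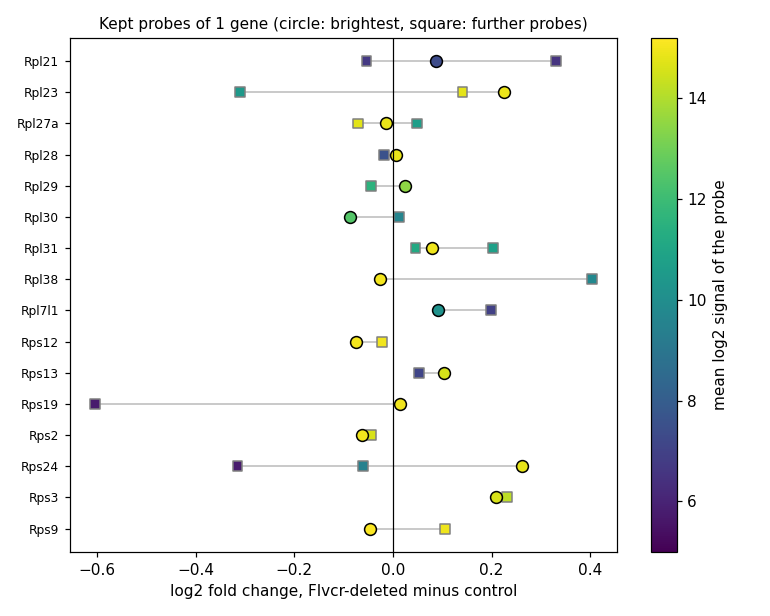
Log2 fold change (x axis, Flvcr-deleted minus control) of every kept probe of the 16 genes with more than 1, by gene (y axis), coloured by the probe's mean log2 signal. The probes of Rps2, Rps3 and Rps12 lie close together, and the dim probes of Rps19, Rps24 and Rpl23 lie far from the bright one.

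Other genes of ribosome production and translation also had 0 members past the threshold. Of 18 translation factors with a TOP start 17 were measured, of which 10 were above and 7 below 0 (median log2 fold change 0.03). Eef1b2, a subunit of the exchange factor of elongation factor 1, had a log2 fold change of 0.21 (SE 0.107), and Eef2, which moves the ribosome along the message, at 0.19 (SE 0.105). Eef1b2 stood at 0.13 without control replicate 2, and Eef2 at 0.0895 with the mean of its probes. Of 34 ribosome assembly factors 28 were measured, 19 higher and 9 lower (median 0.04, range -0.46 to 0.33). Gnl3, nucleostemin, stood at 0.31 and Nop2, an rRNA methyltransferase, at 0.33. Nop2 stood at 0.18 without Flvcr-deleted replicate 2, at 0.21 without background correction and at 0.16 with the mean of its probes. Gnl3 stood at 0.48 without control replicate 3.

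Of 14 RNA polymerase I genes 10 were measured, 7 higher and 3 lower (median 0.10). Their extremes pointed in opposite directions, Polr1b, a core subunit, at 0.52 (SE 0.241) and Taf1a, of the promoter selectivity factor, at -0.46 (SE 0.196). Without background correction these were 0.27 for Polr1b and -0.27 for Taf1a. The 2 measured snoRNA host genes of 9, Snhg5 and Snhg12, stood at -0.40 and 0.14. Snhg5 stood at -0.19 without Flvcr-deleted replicate 2 and at -0.20 without control replicate 1, and Snhg12 at 0.22 without Flvcr-deleted replicate 2 and at 0.0822 without Flvcr-deleted replicate 3. Of 15 upstream regulators 12 were measured, 8 higher and 4 lower (median 0.10), with 0 past the threshold. Tsc1, which restrains mTOR, stood at -0.52 and the Max-binding repressor Mnt at 0.58. Without control replicate 3, which read lowest, Mnt stood at 0.0275, and without background correction at 0.23. Tsc1 stood at -0.17 without background correction and at -0.34 with the mean of its probes.

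Of 15 p53 targets and regulators 10 were measured, 8 higher and 2 lower (median 0.13), and 0 passed an adjusted p of 0.05. Groups did not overlap for 2 of the 10 (20%), against 9.59% of all genes. Mdm2, the ubiquitin ligase of p53, read 11.65, 11.49 and 11.91 on the Flvcr-deleted arrays, against 11.18, 11.48 and 11.27 on the control arrays, a log2 fold change of 0.37 (SE 0.136), with groups that did not overlap by a narrow margin. Bbc3, a pro-apoptotic target, stood at 0.26, at 0.0581 with the mean of its probes, at 0.17 without Flvcr-deleted replicate 1 and at 0.14 without control replicate 3. Mitochondrial ribosomal protein genes, measured for 38 of 40 listed, had 22 higher and 16 lower, with 0 past the threshold. Their median was 0.02, the same as that of the cytosolic genes to 2 decimals.

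**Figure D5:**
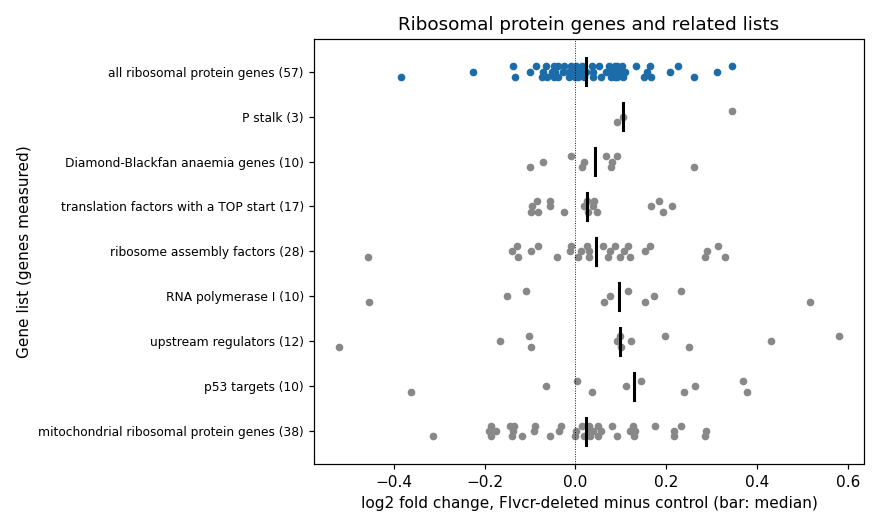
Log2 fold change (x axis, Flvcr-deleted minus control) of each measured gene in the ribosomal protein set and in 8 related lists (y axis), with the median as a bar. The medians run from 0.02 to 0.13, and in each list genes lie on both sides of 0 except in the P stalk.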

How the data were processed

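Per the file headers, the authors deposited non-normalized probe intensities on a linear scale together with detection p-values, and also deposited a table of log2 values. Lumi, with no version, is named in the submitters' processing notes. Quantile normalization of the deposited intensities, then log2, gave that table to within 5.00e-09. Of 45281 probes, 15307 to 15792 per array were detected, and the number of arrays limits the precision.

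Probe names came from the platform annotation, updated through RefSeq's gene table (GRCm38.p6). No probe coordinates were used. Ribosomal protein genes have many near-identical processed pseudogenes, which a probe may not tell apart. Intensities were background-corrected and quantile-normalized with neqc of limma 3.58.1 (R 4.3.3, offset 16, with controls derived from detection p). Probes detected at 0.05 on 3 or more arrays, 15448 in all, entered lmFit and a trended eBayes fit (2-sided), with Benjamini-Hochberg adjustment over the whole set. Levels and fold changes are log2 on this scale, which understates changes of dim probes. Members and lists were chosen with earlier results of these data known. Genes were named by a fixed rule: those past 0.05 (0 here), the 6 highest and 6 lowest log2 fold changes, groups without overlap, the brightest, the dimmest and the 2 most variable, role lists, and the 2 smallest p of each pathway list. Rpl26, Rps19, Rpl31, Rpl38, Rps12, Rps13, Rps25, Rps3a1, Rps2, Rpl29 and Rplp0-ps1 were chosen after their values were seen. No chip or scan date was given, so no batch was fitted. The fit was tested on simulated data. Arrays correlated at 0.977 to 0.986 inside a group and 0.978 to 0.984 across groups.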

Additional observations from a re-analysis of the deposited data

How the results depend on the processing

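The count of ribosomal protein genes past the threshold was 0 under all 15 alternatives, and their median log2 fold change ran from 0.01 to 0.05. The alternatives were no background correction, the deposited log2 values, scaling to a common median, 2 other probe filters and no variance trend. The others were array weights, a replicate block, the mean of a gene's probes and each array left out. Without background correction the values were those of the deposited log2 table, so these 2 alternatives are not separate checks. Over the alternatives the smallest limma adjusted p of a ribosomal protein gene was 0.205, for Rps24 with array weights. Flvcr1 missed the threshold when the trend was dropped (log2 fold change -0.91, limma adjusted p = 0.38) or with an array left out, namely Flvcr-deleted replicate 1 (adjusted p = 0.115), Flvcr-deleted replicate 3 (0.233), control replicate 1 (0.296) or control replicate 2 (0.184), with log2 fold changes of -1.05 to -0.79 over the arrays left out. Of all genes, 13 passed, 1 without the variance trend, 30 with array weights and 2 to 12 with an array left out, the counts being 12, 2 and 3 without Flvcr-deleted replicates 1, 2 and 3 and 4, 2 and 9 without control replicates 1, 2 and 3. Same-numbered arrays of the groups deviated with correlations of -0.0765, 0.0893 and 0.179, and differently numbered arrays with -0.226 to 0.0968. These values do not settle whether the numbers pair the samples, and the main fit took no pairing. With the replicate block 12 genes passed. Some uncalled genes changed sign. Rps24 read -0.0378 and Rps9 0.0295 with the mean of their probes. With array weights Rpl14 read -0.31, Rpl36a -0.0552 and Rpl39 -0.0284, and the cause was not tested. With an array left out the log2 fold change ran from -0.25 to 0.52 for Rpl14, -0.0827 to 0.0900 for Rpl22, -0.0547 to 0.0896 for Rpl36a, -0.0504 to 0.0927 for Rpl39, -0.19 to 0.32 for Rpl3l, -0.0542 to 0.21 for Rpl7l1 and -0.0426 to 0.15 for Rps27l. The strict detection filter left no value for Rpl14, Rpl3l, Tsc1 and Mnt. Dim probes, such as those of Rpl14 and Rpl3l, were limited by their signal over background.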

Other observations

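Probes named for ribosomal protein pseudogenes lay outside the naming rule and were read separately. Of 34 such probes 24 were kept, 16 read higher in Flvcr-deleted cells, and 0 passed an adjusted p of 0.05, with a median log2 fold change of 0.06 and a range of -0.19 to 0.34. Rpsa-ps1, whose parent gene Rpsa was not measured, read 14.71, 14.69 and 14.76 on the Flvcr-deleted arrays, against 14.64, 14.55 and 14.55 on the control arrays, a log2 fold change of 0.14 with groups that did not overlap. Rpsa-ps2, the other kept probe named for an Rpsa pseudogene, read 0.12 with groups that overlapped. Rpl7a-ps3 read 14.28, 13.98 and 14.23 on the Flvcr-deleted arrays, against 14.29, 14.36 and 14.41 on the control arrays (-0.19), also without overlap. Of the 24 kept probes only Rpsa-ps1 and Rpl7a-ps3 had groups without overlap, which 9.59% of all genes measured had. The probes named for Rps6-ps1, Rps6-ps2 and Rps6-ps3 read 0.34, 0.25 and 0.28, and were all highest on Flvcr-deleted replicate 2. The probe of Rps6 itself, at 0.17, read 14.15 on that array, the lowest of the 3 Flvcr-deleted arrays and below control replicate 3 at 14.20. These genes were chosen after their values were seen.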
